A study of Mus musculus with 23 samples.

Results

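Pitx1, Tbx1, Tbx15, Tcf21, Msx1, Msx2, Dlx5 and Pax9 are developmental transcription factors of the face, jaws, teeth and limbs, or of particular muscle groups. They were measured by 12 probe sets, which were all of those whose platform annotation named exactly 1 of these 8 genes, out of 22626 probe sets on the array. Total RNA of *longissimus dorsi* (LD), a long back muscle, and of tongue was hybridized to Affymetrix GeneChip mouse arrays, with 1 array per tissue sample and 23 arrays in all. All mice were adult males that the labels call C57/BL6, with no transgene or drug named. The BF mice had flown for 30 days aboard the Bion M1 biosatellite and were sampled hours after landing, the BG mice lived in the same habitat without flying, and the FC mice were kept in a standard animal facility. *Longissimus dorsi* was measured in 5 BF, 5 BG and 5 FC samples, and tongue in 3 BF, 3 BG and 2 FC samples. It is not given in the labels or methods if the muscles were taken from the same animals. The labels number the samples of a group separately, and the p-values measure the spread between these samples.

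Limb muscles and the back muscle *longissimus dorsi* arise from somites, whereas head muscles such as those of the jaw arise from the mesoderm of the pharyngeal arches. Tongue muscle cells come from somites too, but they settle in tissue of the lower jaw, whose connective tissue comes from the neural crest and which is covered by oral epithelium. The 8 genes are known from patterning in the embryo, and several of them are known to stay active in adult tissue. Pitx1 marks oral ectoderm, the first pharyngeal arch and the hindlimb. Tbx1, the gene linked to DiGeorge syndrome, acts in the pharyngeal arches and in the progenitors of jaw muscle. Tcf21 is also known from head muscle progenitors and from fibroblasts. Msx1, Msx2, Dlx5 and Pax9 act in the skull, jaws, teeth and palate, and Pax9 is also needed for the filiform papillae of the tongue. Tbx15 is known from the skeleton of head and limb and from glycolytic muscle fibres.

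Expression is given on the deposited log2 scale, as normalized by Robust Multichip Average (RMA), on which a step of 1 equals 2-fold. They ranged from 2.24 to 14.5 over all probe sets. Probe sets differ in their affinity, so that differences were taken only within a probe set. As a rough guide to the low end of the scale, 37 probe sets of 26 genes of other organs (photoreceptor, lens and sperm genes among them) were averaged over all arrays, and these means ranged from 2.66 to 6.52 with a median of 4.28. All *longissimus dorsi* values of Pitx1, Tbx1, Dlx5, Msx2 and Pax9 at 1421246_at lay within that range. So did all tongue values of Msx2 and of Pax9 at 1421246_at. The same held for all values of Tcf21 and of Msx1 at 1448601_s_at, and for the BG and FC tongue values of Tbx15 at 1422195_s_at. A fold against such values is that of the normalized signal, part of which can be background, and these folds were not ranked. To be called, a probe set needed a change of more than 2-fold and an adjusted p under 0.05. The p came from the moderated test of limma, with Benjamini-Hochberg adjustment for the whole array in each comparison.

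Array medians lay between 6.42 and 6.61. The SD of an array around its group over all probe sets was 0.149 to 0.356 in *longissimus dorsi* and 0.103 to 0.217 in tongue, and it was widest in 1 of the BG arrays of *longissimus dorsi* (replicate 5). Skeletal muscle markers were high in both tissues, with a mean log2 value per array over 26 probe sets of 12.3 to 12.6 in *longissimus dorsi* and of 10.7 to 11.5 in tongue. The tongue samples also held oral epithelium. Over 44 probe sets of 30 epithelial genes the mean log2 value per array was 10.5 to 10.7 in tongue and 4.88 to 5.11 in *longissimus dorsi*, and 41 of them were called higher in tongue. Krt4, the keratin of the mucosal surface, averaged 14.26 in tongue and 5.65 in *longissimus dorsi*. Of the other marker lists, 11 of 26 skeletal muscle, 7 of 35 fibroblast and tendon, 9 of 19 adipocyte and 1 of 17 salivary gland probe sets were called lower in tongue. Called higher in tongue were 4 of 22 Schwann cell, 1 fibroblast and 2 adipocyte probe sets, and none of 23 endothelial and 24 macrophage probe sets was called.

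The first comparison was between the muscles. Pitx1, Tbx1, Dlx5, Msx2 and Pax9 were higher in tongue, by 3.21- to 16.4-fold. Tbx15 was lower in tongue at both of its probe sets, by more than 2-fold at 1 of them, and Tcf21 and Msx1 differed by less than 2-fold. In all, 7 of the 12 probe sets (5 genes) were called higher in tongue and 1 probe set (1 gene) was called lower. On the whole array 7.93% of probe sets were called higher and 5.51% lower. The median difference of the 12 probe sets was 1.73 (log2), and that of all probe sets was -0.142. In 7 of the 12 probe sets, the same that were called higher, all 8 tongue arrays lay above all 15 *longissimus dorsi* arrays. This was so for 10.5% of all probe sets. The epithelial markers given above moved with this comparison, and their part in the result was not tested. In a piece of tissue, fewer cells of a type and less RNA per cell cannot be told apart.

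**Figure D1:**
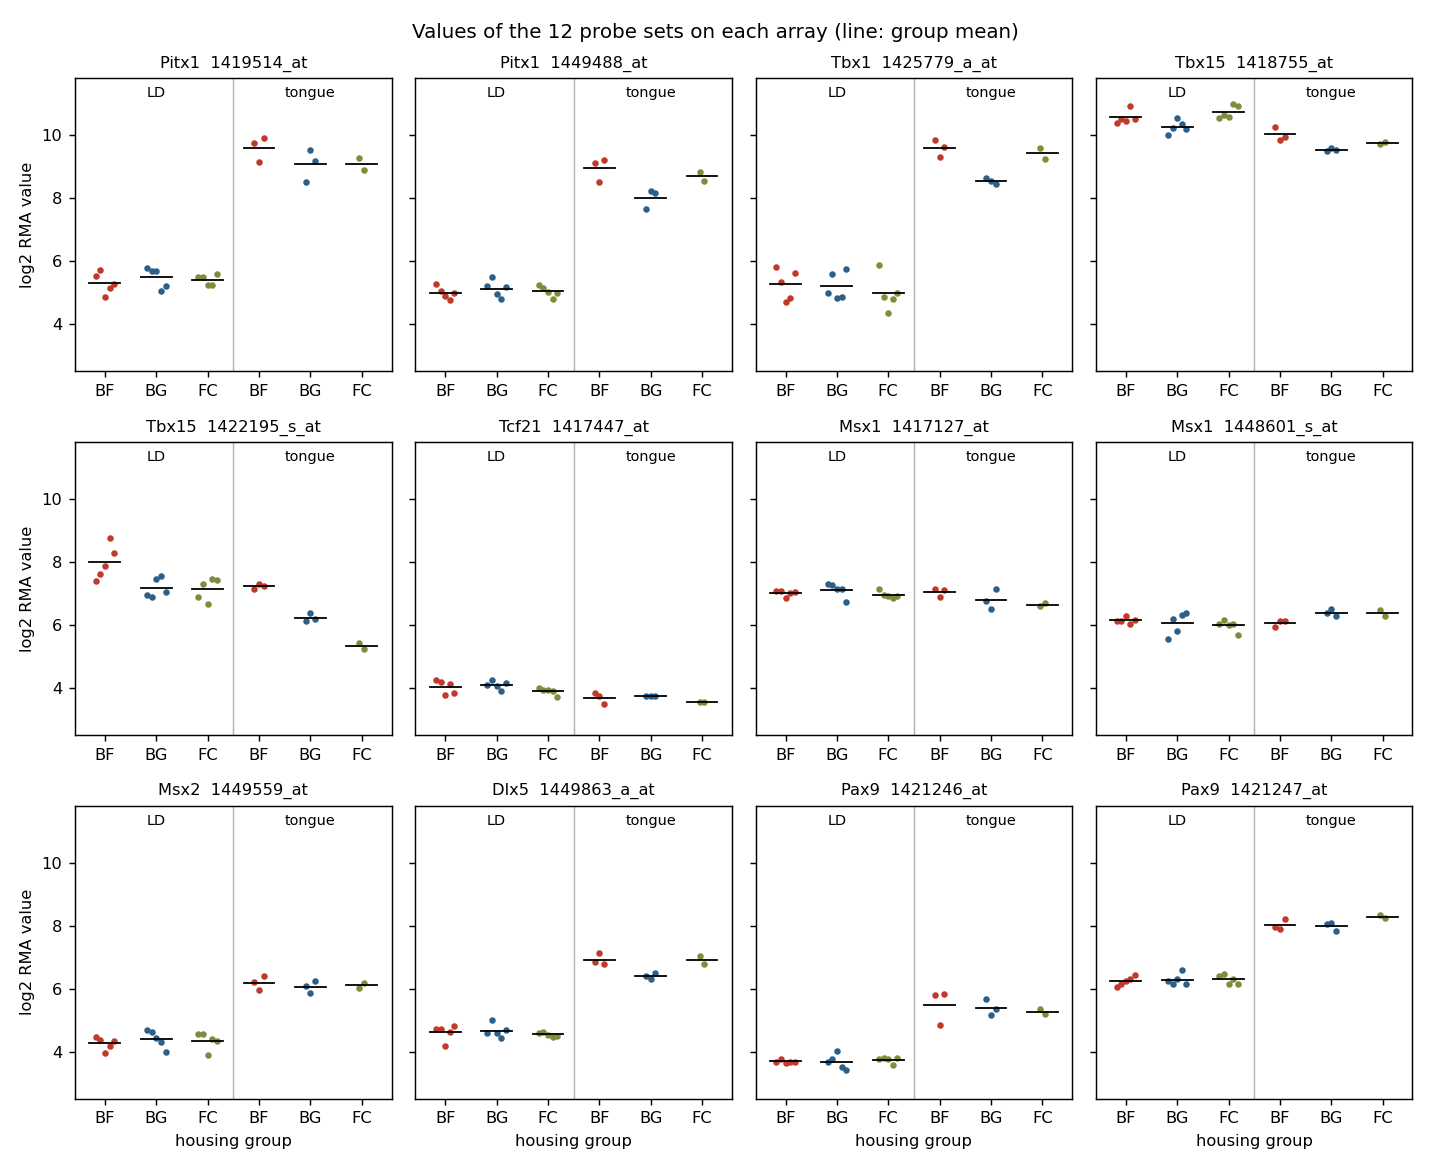
Log2 RMA value of each of the 12 probe sets on every array, for BF, BG and FC mice in *longissimus dorsi* (LD, 15 arrays) and tongue (8 arrays). Points are arrays and lines are group means. Pitx1, Tbx1, Msx2, Dlx5 and Pax9 sit higher on all tongue arrays, whereas Msx1 and Tcf21 lie close together in both muscles.

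Pitx1, a paired-like homeodomain factor, was covered by 2 probe sets. With 1419514_at its values in *longissimus dorsi* ran from 4.87 over a median of 5.50 to 5.79, and in tongue from 8.51 over 9.23 to 9.91. The arrays of the muscles did not overlap, and the difference of 3.85 ± 0.135 (log2, SE, n = 23 arrays) was a 14.4-fold change (adjusted p = 3.38e-17, limma). With 1449488_at the range was 4.77 to 5.50 in *longissimus dorsi* (median 5.03) and 7.64 to 9.22 in tongue (median 8.53). That probe set differed by 3.50 ± 0.106 (log2, SE), an 11.3-fold change (adjusted p = 1.97e-18, limma). Both Pitx1 probe sets thus gave a difference of the same direction and similar size.

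Tbx1, a T-box factor, had a single probe set (1425779_a_at). It ran from 4.35 over a median of 4.98 to 5.88 in *longissimus dorsi*, and from 8.44 over 9.28 to 9.83 in tongue. Its difference was 4.04 ± 0.172 (log2, SE), or 16.4-fold (adjusted p = 1.48e-15, limma). Dlx5, a homeodomain factor of lower jaw identity, ran from 4.19 to 4.99 in *longissimus dorsi* (median 4.60) and from 6.29 to 7.12 in tongue (median 6.77). Dlx5 was thereby 4.40-fold higher in tongue (2.14 ± 0.0794, adjusted p = 1.08e-16). Neither gene overlapped between the muscles.

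Msx2, a homeodomain factor that responds to bone morphogenetic proteins (BMPs), ran from 3.89 to 4.67 in *longissimus dorsi* (median 4.37) and from 5.85 to 6.40 in tongue (median 6.12). The difference was 1.78 ± 0.0990 (log2, SE), or 3.43-fold (adjusted p = 2.36e-13). Its paralogue Msx1 did not follow it. The Msx1 probe set 1417127_at ran from 6.71 to 7.30 in *longissimus dorsi* (median 7.03) and from 6.50 to 7.14 in tongue (median 6.82), and 1448601_s_at from 5.55 to 6.39 (median 6.11) and from 5.92 to 6.51 (median 6.28). The arrays of both muscles overlapped at each probe set. The differences were -0.20 ± 0.0793 (adjusted p = 0.0292) and 0.22 ± 0.0905 (adjusted p = 0.0357), so that the probe sets of 1 gene pointed in opposite directions, each by less than 2-fold. A suffix _s_at marks a probe set whose probes match more than 1 transcript. The adjusted p of 1417127_at was under 0.05 in 28 of 31 alternative settings and that of 1448601_s_at in 19 of 29.

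Pax9, a paired-box factor, ran with 1421247_at from 6.05 to 6.6 in *longissimus dorsi* (median 6.24) and from 7.84 to 8.33 in tongue (median 8.07). It was 3.55-fold higher in tongue (1.83 ± 0.0719, adjusted p = 3.24e-16). With 1421246_at it ran from 3.43 to 4.03 (median 3.68) and from 4.83 to 5.82 (median 5.36), a 3.21-fold difference (1.68 ± 0.104, adjusted p = 1.62e-12). The Pax9 probe sets gave nearly the same change and no overlap.

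Tbx15 was the member with a probe set called lower in tongue. With 1422195_s_at it ran from 6.66 to 8.75 in *longissimus dorsi* (median 7.42) and from 5.24 to 7.29 in tongue (median 6.27). The arrays overlapped, and the difference of -1.18 ± 0.142 (2.26-fold, adjusted p = 1.48e-07) was called. With 1418755_at it ran from 10.01 to 10.99 (median 10.52) and from 9.50 to 10.26 (median 9.74), a 1.69-fold difference (-0.75 ± 0.0824, adjusted p = 3.11e-08) that was not called. Tcf21, a basic helix-loop-helix factor, ran from 3.70 to 4.26 in *longissimus dorsi* (median 3.99) and from 3.50 to 3.82 in tongue (median 3.73), in both within the range of the genes of other organs. Its difference was -0.35 ± 0.0694 (1.27-fold, adjusted p = 0.00014). An adjusted p under 0.05 alone was common between these muscles, since 69.8% of all probe sets reached it.

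The same comparison was made within each housing group. The 7 probe sets of Pitx1, Tbx1, Dlx5, Msx2 and Pax9 were called higher in tongue in BF, in BG and in FC mice. The background was 7.60%, 8.26% and 8.60% of all probe sets. Tbx1 was higher by 4.33 ± 0.283 in BF, 3.33 ± 0.283 in BG and 4.45 ± 0.324 in FC mice (log2, SE). Pitx1 (1449488_at) was higher by 3.96 ± 0.175, 2.88 ± 0.175 and 3.65 ± 0.200, and Dlx5 by 2.30 ± 0.131, 1.75 ± 0.131 and 2.36 ± 0.150. At the other Pitx1 probe set (1419514_at) the differences were 4.30, 3.59 and 3.67. Msx2 was higher by 1.93, 1.66 and 1.75, and Pax9 by 1.79, 1.71 and 1.98 at 1421247_at and by 1.80, 1.71 and 1.54 at 1421246_at. The difference was smallest in BG mice at 6 of these 7 probe sets, with Pax9 1421246_at as the exception. How many of all probe sets had this order was not counted. The median difference of all probe sets was also lowest in BG mice, at -0.175, beside -0.103 in BF and -0.13 in FC mice. None of the 7 differed between housing groups in this respect at an adjusted p under 0.05 (limma), as described below. Tbx15 (1422195_s_at) was lower by -0.76 ± 0.234 in BF and -0.96 ± 0.234 in BG mice, and by -1.81 ± 0.268 in FC mice, where it was called (7.0% of all probe sets were called lower there). At the other Tbx15 probe set (1418755_at) the differences were -0.54 ± 0.136 in BF, -0.73 ± 0.136 in BG and -0.99 ± 0.156 in FC mice, none of them called.

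**Figure D2:**
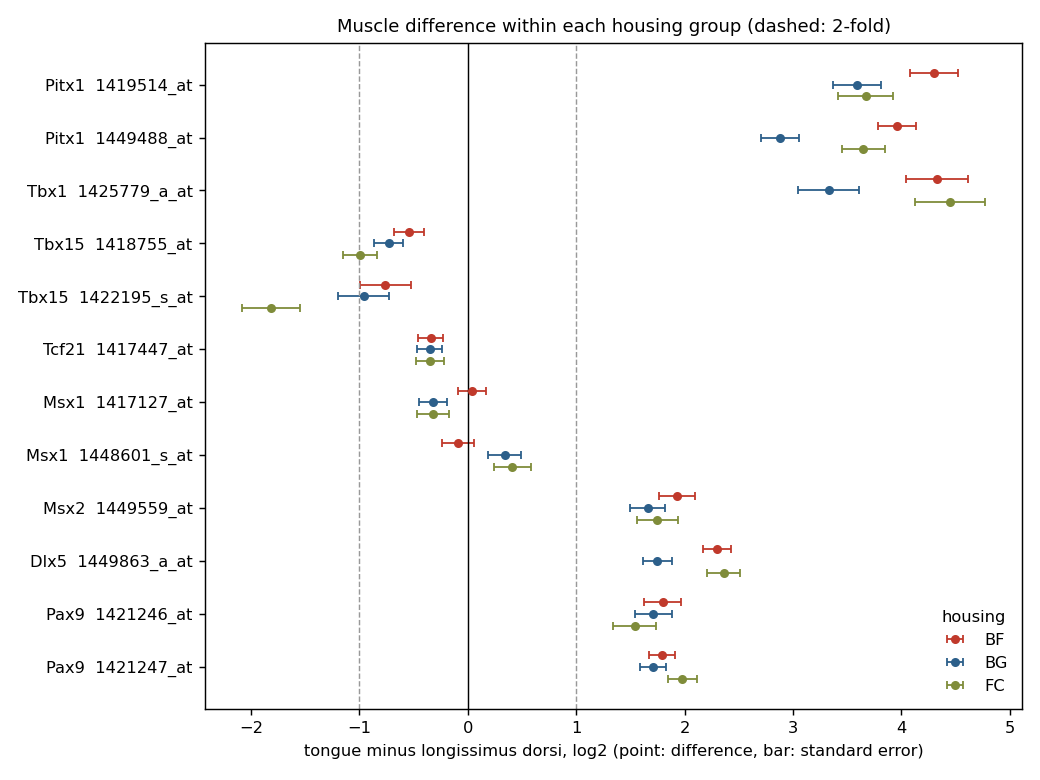
Tongue minus *longissimus dorsi* (log2) for each of the 12 probe sets within BF, BG and FC mice, with points for differences and bars for standard errors. The dashed lines mark 2-fold. Tbx1 lies at 4.33, 3.33 and 4.45, and Tbx15 (1422195_s_at) at -0.76, -0.96 and -1.81.

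The promoters were read to see what genes that were higher in tongue share in sequence. The RefSeq promoter table (build GRCm38.p6) matched 5 of the 8 genes. The 250 bases before each start are shown for Tbx1, Msx2 and Pax9, which were higher in tongue, and for Msx1, which was not. The windows are chr16:18588900-18589149 (Tbx1, - strand), chr16:18590672-18590921 (a second Tbx1 start, - strand), chr13:53472781-53473030 (Msx2, - strand), chr12:56695221-56695470 (Pax9, + strand) and chr5:37824586-37824835 (Msx1, - strand). They are written 5′ to 3′, and capitals mark TAATTA, a core that homeodomain proteins of the Msx and Dlx kind bind.
Tbx1: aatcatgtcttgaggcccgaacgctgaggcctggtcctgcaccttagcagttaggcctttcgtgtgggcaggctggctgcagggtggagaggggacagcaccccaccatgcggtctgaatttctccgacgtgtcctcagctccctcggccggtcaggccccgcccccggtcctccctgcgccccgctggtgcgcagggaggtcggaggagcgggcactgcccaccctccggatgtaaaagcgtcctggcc
Tbx1, second start: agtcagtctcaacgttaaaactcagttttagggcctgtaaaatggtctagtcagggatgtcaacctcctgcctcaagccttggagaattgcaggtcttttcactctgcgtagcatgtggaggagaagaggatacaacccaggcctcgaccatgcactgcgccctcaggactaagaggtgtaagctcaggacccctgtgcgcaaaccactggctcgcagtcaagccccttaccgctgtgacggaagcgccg
Msx2: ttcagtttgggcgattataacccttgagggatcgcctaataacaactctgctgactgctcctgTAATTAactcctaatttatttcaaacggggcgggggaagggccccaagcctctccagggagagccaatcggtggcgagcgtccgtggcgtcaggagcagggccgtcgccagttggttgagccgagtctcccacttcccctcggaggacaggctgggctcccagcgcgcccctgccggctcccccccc
Pax9: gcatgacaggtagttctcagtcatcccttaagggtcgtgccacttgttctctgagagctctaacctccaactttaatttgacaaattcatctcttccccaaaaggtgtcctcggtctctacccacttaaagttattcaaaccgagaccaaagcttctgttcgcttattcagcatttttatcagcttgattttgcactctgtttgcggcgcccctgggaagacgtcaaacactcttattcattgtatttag
Msx1: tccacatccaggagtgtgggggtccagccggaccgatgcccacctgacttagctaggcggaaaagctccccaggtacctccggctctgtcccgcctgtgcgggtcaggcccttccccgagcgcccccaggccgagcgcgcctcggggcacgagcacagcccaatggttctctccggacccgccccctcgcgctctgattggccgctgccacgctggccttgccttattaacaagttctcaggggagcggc

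Each window was searched on both strands for TAATTA, for TAATCC (the core bound by Pitx proteins), for AGGTGTGA (a T-box site) and for TATAAA (the TATA box). The only match was TAATTA in Msx2, which began 187 bases before the start and overlapped none of the other motifs. Of the 32851 promoter windows of this length in the table, 4.84% held TAATTA, 6.25% TAATCC, 1.12% AGGTGTGA and 12.4% TATAAA. The GC content was 67.2% and 54.4% at the Tbx1 starts, 61.6% in Msx2, 43.6% in Pax9, 68.0% in Msx1 and 52.4% in Tcf21, whose window held none of the motifs either. Pitx1 and Dlx5, also higher in tongue, were not in the promoter table and could not be searched. Tbx1, Msx2 and Pax9 had no motif of these in common. Each motif was found in few of all windows, so that the lack of a shared one decides nothing here.

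Relatives of the 8 genes were then examined, beside the 7.93% of all probe sets called higher and the 5.51% called lower in tongue. Of the other T-box genes, 10 genes with 15 probe sets were measured, and 2 probe sets were called higher in tongue and none lower. These were Tbx2 (1.38 ± 0.0773, log2, SE) and Tbx3 at 1 of its 2 probe sets (1448029_at, 1.30 ± 0.0957). Of the other Dlx genes, 5 genes with 6 probe sets were measured, and 2 probe sets were called higher. Dlx3, a factor of differentiating epithelium, was 7.88-fold higher at 1450475_at (2.98 ± 0.0829), whereas its other probe set differed by 0.14. Dlx2 was 2.06-fold higher (1.04 ± 0.0754). Dlx6, the genomic neighbour of Dlx5 that acts with it in the lower jaw, averaged 4.02 in tongue and 4.32 in *longissimus dorsi* (-0.30 ± 0.0586) and was not called. Pitx3, Msx3 and the other 7 Pax genes measured (12 probe sets) held no called probe set. Pax7, the satellite cell factor, differed by -0.53 ± 0.0950 (1.44-fold, adjusted p = 3.79e-05). None of these relatives was called between housing groups.

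Other genes that carry positional identity were described from a list of 98 factors, of which 83 were measured by 119 probe sets. Of these, 19 probe sets (12 genes) were called higher and 5 (5 genes) lower in tongue, beside 7.93% and 5.51% of all probe sets. The median difference was -0.20. Isl1, a factor of head and heart progenitors, was 22.1-fold higher at 1450723_at (4.47 ± 0.0919) and 15.5-fold higher at 1422720_at (3.96 ± 0.0819). Barx2, a homeodomain factor of oral epithelium and muscle, was higher by 2.95 ± 0.0744, and Trps1 by 1.81 ± 0.103. Zic1, a factor of the dorsal somite, averaged 3.75 in tongue and 9.32 in *longissimus dorsi*, so that it was lower in tongue by -5.57 ± 0.178 (adjusted p = 5.30e-18). The other genes called lower, named after their values were seen, were Irx5 (-1.98), En1 (-1.59), Irx3 (-1.12) and Six4 (-1.10). The tongue value of Zic1 lay within the range of the genes of other organs.

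Ligands, receptors and inhibitors of the signalling pathways that pattern the face were described from a list of 55 genes, of which 52 were measured by 84 probe sets. Here 18 probe sets (13 genes) were called higher in tongue and 1 lower, beside 7.93% and 5.51% of all probe sets. The median difference was 0.02. The BMP ligands Bmp7 (1418910_at, 2.24 ± 0.0762) and Bmp2 (2.07 ± 0.0853) were higher, as were the BMP and Wnt inhibitor Sostdc1 (3.62 ± 0.130 and 2.76 ± 0.107) and the ligand Wnt5a (1.81 ± 0.0764 and 1.85 ± 0.0810). The fibroblast growth factor receptors Fgfr2 (1433489_s_at, 2.90 ± 0.0614) and Fgfr3 (1421841_at, 3.01 ± 0.101) were higher too. The other probe sets of Bmp7 (0.61 and 0.51) and of Fgfr3 (0.30) were not called, whereas that of Fgfr2 was (1.20). The probe set called lower was that of the Wnt inhibitor Dkk2 (-1.71 ± 0.337), named after its value was seen.

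**Figure D3:**
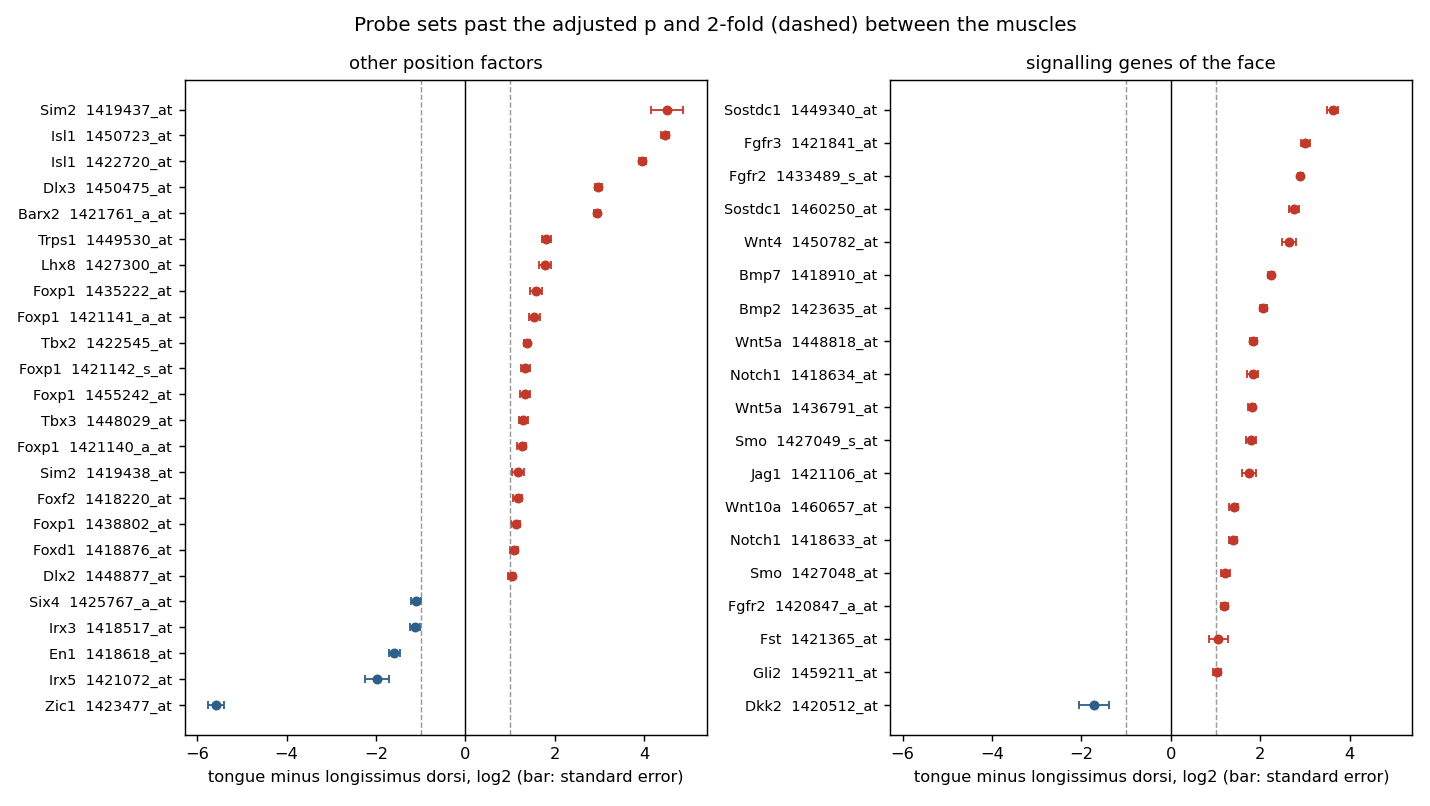
Tongue minus *longissimus dorsi* (log2, bars are standard errors) for the probe sets called among the other position factors (19 higher, 5 lower) and among the signalling genes of the face (18 higher, 1 lower). Zic1 lies at -5.57 on the left, and Isl1 at 4.47 and 3.96 lies on the right.

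Genes with a pattern like that of each member were found by Pearson's r over the 23 arrays among 12392 genes (1 probe set per gene). The arrays share the split between the muscles, so that genes which separate them cleanly share a high r. At r over 0.9 there were 1002 genes for Pitx1, 932 for Tbx1, 921 for Dlx5, 901 for Msx2 and 991 for Pax9, but 51 for Tbx15 and 0 for Tcf21 and Msx1. The nearest genes were Crabp2, Psors1c2 and Prss8 for Pitx1 (r = 0.991 each), and Fam83h, Prdm1 and Klk11 for Pax9 (0.993, 0.990 and 0.990). For Tbx1 they were Dlx5 (0.985), Tmem79 and Hk1, and for Dlx5 they were the hair keratin Krt31, the keratin-associated protein Krtap3-1 and Tbx1 (0.985 each). Those of Msx2 were Fhdc1, Psors1c2 and Cttnbp2nl (0.984 to 0.985). For Tbx15 they were Bckdk (0.941), Pnpla7 and Crat (0.933 each), which act in amino acid and lipid metabolism and were lower in tongue by -0.86, -1.18 and -1.17. Those of Tcf21 reached 0.833 and those of Msx1 0.872.

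Within groups, where the muscles no longer set the pattern, r was taken over the deviations of the 23 arrays from their 6 group means. The probe sets of 1 gene went together for Pitx1 (r = 0.774) and for Tbx15 (r = 0.710). Those of Pax9 had an r of 0.121 and those of Msx1 one of -0.522. Msx2 had an r of 0.747 with 1 Msx1 probe set (1417127_at) and of -0.397 with the other, and Tbx1 and Dlx5 one of 0.502. The genes nearest to Tbx1 by this measure were Selplg (0.931), Sfrp4 (0.894) and Ntrk2 (0.855), and those nearest to Tbx15 were Isoc1 and Kcnj12 (0.855 each) and Dkk3 (0.819). Il11 (0.860) came first for Pitx1, Serpina10 (0.753) for Tcf21, Prph (0.892) for Msx1, Opn4 (0.936) for Msx2, Cbx3 (0.849) for Dlx5 and Kcnj1 (0.763) for Pax9. Each array shares its depth, RNA and normalization across genes, and these values are given as a description.

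The next comparisons asked whether 30 days of spaceflight or the habitat were accompanied by a change in *longissimus dorsi*. None of the 12 probe sets was called in BF vs. BG, FC vs. BG or BF vs. FC, where 0.424%, 0.203% and 0.331% of all probe sets were called by limma. The comparisons share their groups of arrays in pairs, so that their values are not independent. In each, 1 probe set changed by less than 2-fold at an adjusted p under 0.05, and all 3 were of Tbx15. This adjusted p alone was reached by 10.2%, 8.95% and 3.66% of all probe sets. In the other 7 genes the differences between housing groups ran from -0.23 to 0.29 (log2). The 95% intervals were widest for Tbx1, with a lowest bound of -0.74 in FC vs. BG and a highest bound of 0.79 in BF vs. FC.

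Tbx15 at 1422195_s_at was 7.40, 7.61, 7.88, 8.75 and 8.27 in BF *longissimus dorsi*, 6.95, 6.88, 7.46, 7.56 and 7.05 in BG, and 6.89, 7.30, 6.66, 7.46 and 7.42 in FC. The BF arrays were highest on average and reached down into the BG and FC ranges. BF differed from BG by 0.80 ± 0.202 (1.74-fold, adjusted p = 0.0146) and from FC by 0.84 ± 0.202 (1.78-fold, adjusted p = 0.0203), whereas FC differed from BG by -0.03 (95% interval -0.45 to 0.39). Without BF replicate 4, 5 or FC replicate 3 the difference from FC was 0.64, 0.76 and 0.71 with an adjusted p of 0.0682, 0.0648 and 0.0742. With *longissimus dorsi* fitted alone it was 0.84 (adjusted p = 0.0655), and 0.86 after quantile normalization within the muscle (adjusted p = 0.0605). After that normalization BF differed from BG by 0.75 (adjusted p = 0.0546). The adjusted p was under 0.05 in 26 of 31 alternative settings for BF vs. FC and in 30 of 31 for BF vs. BG. The mean log2 value per array of the fibroblast and tendon markers was 7.31 to 8.48 in BF, 7.80 to 9.02 in BG and 7.68 to 9.44 in FC *longissimus dorsi*, and that of the macrophage markers was 6.23 to 7.46, 6.82 to 8.79 and 6.51 to 7.30. Their part in the Tbx15 values was not tested.

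The other Tbx15 probe set, 1418755_at, gave another order. Its values were 10.39, 10.52, 10.45, 10.94 and 10.50 in BF, 10.01, 10.24, 10.53, 10.35 and 10.20 in BG, and 10.54, 10.65, 10.58, 10.99 and 10.93 in FC *longissimus dorsi*. All FC arrays were above all BG arrays, by 0.47 ± 0.118 (1.39-fold, adjusted p = 0.0162), with 10.54 and 10.53 as the closest arrays. Such a separation was found in 4.19% of all probe sets. BF differed from BG by 0.29 (adjusted p = 0.117) and from FC by -0.18 (adjusted p = 0.513). Without BG replicate 1 the adjusted p of FC vs. BG was 0.0554.

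In tongue 1 of the 12 probe sets was called between housing groups, in BF vs. FC, where 0.654% of all probe sets were called. It was 1422195_s_at of Tbx15 again. The values were 7.14, 7.29 and 7.24 in BF, 6.13, 6.36 and 6.18 in BG, and 5.43 and 5.24 in FC tongue. Those of BG and FC lay within the range of the genes of other organs, so that part of their signal can be background. The 3 groups did not overlap, with BF highest and FC lowest, and 17.6% of all probe sets had every BF array above both FC arrays. BF was higher than FC by 1.88 ± 0.292 (3.69-fold, adjusted p = 0.00125), and this stayed called in all 31 alternative settings that tested the probe set (adjusted p 0.00017 to 0.03). BF was higher than BG by 1.0 ± 0.261 (adjusted p = 0.0684), and FC differed from BG by -0.88 ± 0.292 (adjusted p = 0.0580), neither of which was called. The second probe set of Tbx15 did not show this order. At 1418755_at the values were 10.26, 9.86 and 9.94 in BF, 9.50, 9.59 and 9.52 in BG and 9.72 and 9.77 in FC tongue, and BF differed from FC by 0.28 (95% interval -0.08 to 0.63).

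The fibroblast and tendon markers also moved with the tongue groups. Their mean log2 value per array was 7.24 to 7.64 in BF, 7.59 to 7.70 in BG and 8.0 to 8.05 in FC tongue over 35 probe sets of 20 genes, and 0 of these were called in BF vs. FC. The Schwann cell markers lay at 6.96 to 7.0 in BF, 6.78 to 6.97 in BG and 7.19 to 7.23 in FC tongue over 22 probe sets, and the endothelial markers at 7.15 to 7.39, 7.01 to 7.17 and 7.19 to 7.25 over 23, so that BG was lowest on average in both. None of these Schwann cell probe sets was called between tongue groups. The macrophage markers lay at 6.89 to 7.18 in BF, 7.16 to 7.33 in BG and 7.03 to 7.24 in FC tongue. For the adipocyte markers these ranges were 6.38 to 6.92, 6.44 to 6.80 and 6.38 to 6.52, so that BG was not lowest on average in either list. The part of these cells in the values of Tbx15, or in those of the other genes in tongue, was not tested. The epithelial markers lay at 10.5 to 10.7 in BF, 10.6 to 10.7 in BG and 10.7 in FC tongue, and the salivary gland markers between 5.12 and 5.32 in all 3 groups.

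In BF vs. BG tongue none of the 12 probe sets was called, and 0.221% of all probe sets were. The values of Pitx1, Tbx1, Dlx5 and Tbx15 were nevertheless higher on every BF array than on any BG array at 5 of the 12 probe sets, where 9.69% of all probe sets showed this. Tbx1 was 9.83, 9.30 and 9.63 in BF, 8.63, 8.55 and 8.44 in BG, and 9.60 and 9.25 in FC tongue. The BG arrays stood below those of both other groups. The Schwann cell and endothelial markers were also lowest in BG on average, whereas the macrophage and adipocyte markers were not. The tongue comparisons share their groups in pairs. Tbx1 differed by 1.05 ± 0.317 between BF and BG (adjusted p = 0.109), by 0.89 ± 0.354 between FC and BG (adjusted p = 0.120) and by 0.16 (95% interval -0.57 to 0.90) between BF and FC.

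Pitx1 at 1449488_at was 9.13, 8.51 and 9.22 in BF, 7.64, 8.22 and 8.17 in BG, and 8.84 and 8.54 in FC tongue. BF was higher than BG by 0.94 ± 0.196 (1.92-fold, adjusted p = 0.0221), just short of 2-fold, and an adjusted p under 0.05 was reached by 0.826% of all probe sets here. FC differed from BG by 0.68 ± 0.219 (adjusted p = 0.0524). At the other Pitx1 probe set, 1419514_at, the values were 9.74, 9.16 and 9.91 in BF, 8.51, 9.53 and 9.18 in BG, and 9.28 and 8.89 in FC tongue. These groups overlapped, and BF differed from BG by 0.53 (95% interval 0.01 to 1.04, adjusted p = 0.310) and FC from BG by 0.01. The adjusted p of 1449488_at in BF vs. BG rose to 0.154 or 0.157 when BF replicate 1 or 3 was left out, and to 0.154 or 0.0550 when this was BG replicate 1 or 2.

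Dlx5 was 6.85, 7.12 and 6.78 in BF, 6.41, 6.29 and 6.51 in BG, and 7.03 and 6.77 in FC tongue. Like Tbx1, it had BG arrays below all others, with 0.51 (adjusted p = 0.0937) between BF and BG and 0.49 (adjusted p = 0.0598) between FC and BG, and BF and FC differed by 0.02 (95% interval -0.32 to 0.36). Msx2 and Pax9, also higher in tongue than in *longissimus dorsi*, lacked this order. Msx2 was 6.21, 5.96 and 6.40 in BF, 6.08, 5.85 and 6.24 in BG, and 6.03 and 6.17 in FC tongue, and the groups overlapped. Pax9 (1421247_at) was 7.94, 7.90 and 8.22 in BF, 8.05, 8.09 and 7.84 in BG, and 8.33 and 8.23 in FC tongue. At the Msx1 probe set 1448601_s_at the values were 5.92, 6.11 and 6.12 in BF, 6.39, 6.51 and 6.27 in BG, and 6.48 and 6.29 in FC tongue. All BF arrays lay below all BG arrays there, as in 8.84% of all probe sets. Over the tongue comparisons the differences of Msx2, Pax9 and Tcf21 ran from -0.25 to 0.28, and those of Msx1 from -0.34 to 0.40, none with an adjusted p under 0.05.

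In BF vs. BG tongue the deviations of samples with the same number correlated weakly (r = 0.167 to 0.383 in 3 pairs). BF replicate 1 correlated more with a BG sample of another number. The labels do not pair samples by number. With that number as a block, fitted over all arrays of both muscles and not only over these samples, 2 probe sets were called. These were Tbx1 (1.05, adjusted p = 0.0471) and Tbx15 at 1422195_s_at (1.0, adjusted p = 0.0188), so that the calls in this comparison depended on the design of the fit. A single probe set was called without BF *longissimus dorsi* replicate 4 (Tbx15, 1422195_s_at), without BF tongue replicate 2 (Pitx1, 1449488_at, 1.16) or without BG tongue replicate 3 (the same Pitx1 probe set, 1.02). In FC vs. BG tongue none of the 12 was called, and 1.35% of all probe sets were. There 5 of the 12 had both FC arrays above all BG arrays and 2 had them below, against 24.4% and 20.4% of all probe sets.

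**Figure D4:**
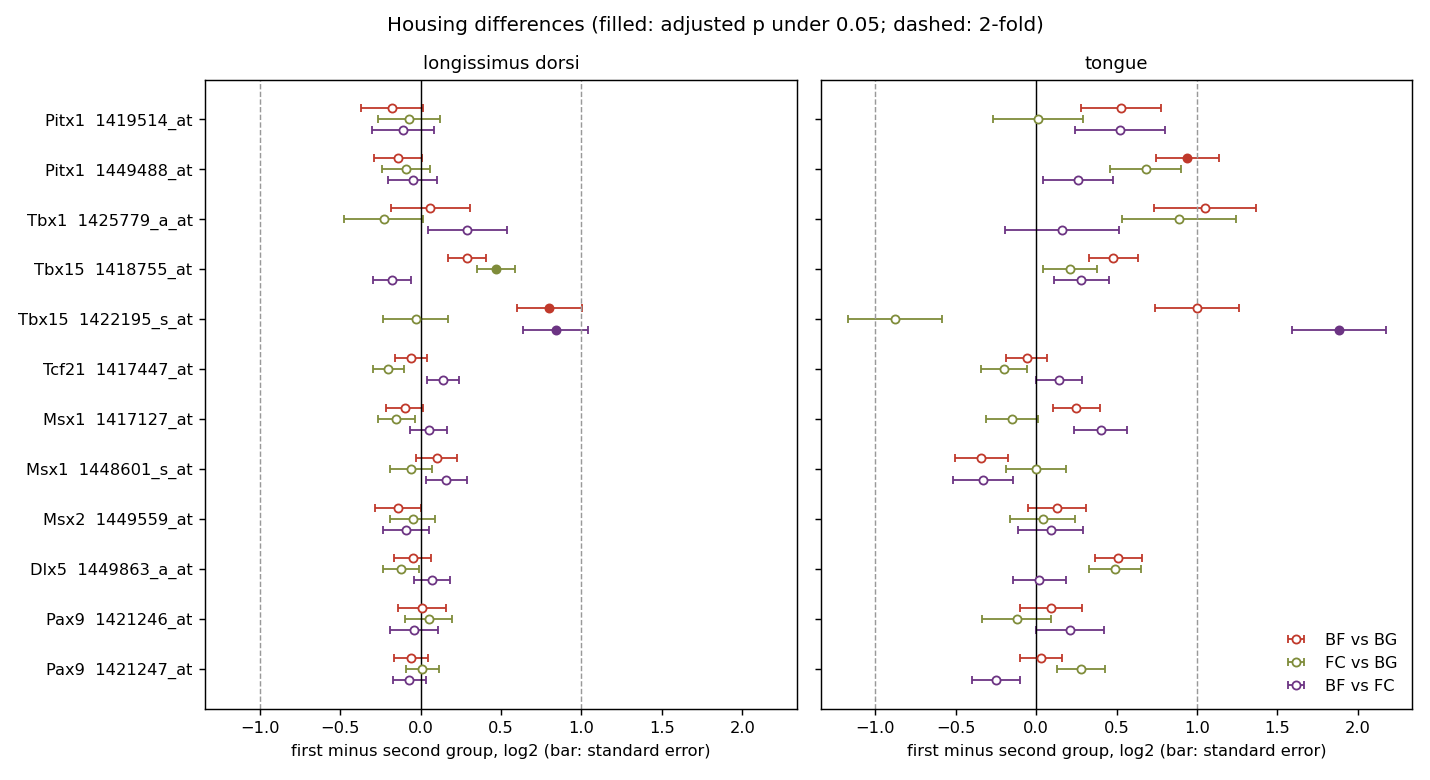
Differences between housing groups (log2, bars are standard errors) for the 12 probe sets in *longissimus dorsi* and tongue. Filled points have an adjusted p under 0.05 and dashed lines mark 2-fold. The single filled point beyond a dashed line is Tbx15 (1422195_s_at) in BF vs. FC tongue at 1.88.

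Whether housing differences varied between the muscles was tested as a difference of differences. None of the 12 probe sets had an adjusted p under 0.05 in BF vs. BG, FC vs. BG or BF vs. FC, where 0.172%, 0.301% and 0.0663% of all probe sets did. Pitx1 (1449488_at) gave the smallest adjusted p, with a tongue minus *longissimus dorsi* difference in BF vs. BG of 1.08 ± 0.247 (95% interval 0.57 to 1.59, adjusted p = 0.0750). Without BG *longissimus dorsi* replicate 5, BF tongue replicate 2 or BG tongue replicate 3 this was 1.07, 1.30 and 1.16, with an adjusted p of 0.0396, 0.0200 and 0.0483. Leaving out single arrays gave 0.89 to 1.30. Over all alternative settings the adjusted p ran from 0.00362 to 0.281 and was under 0.05 in 4 of 29. For Tbx1 it was 0.99 in BF vs. BG (95% interval 0.16 to 1.82, adjusted p = 0.318) and 1.12 in FC vs. BG (0.23 to 2.01, adjusted p = 0.353). For Tbx15 (1422195_s_at) it was 1.05 in BF vs. FC (0.31 to 1.79, adjusted p = 0.412).

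Among the other position factors and facial signals, 2 genes were called between housing groups, both in tongue. Both the FC vs. BG and the BF vs. FC comparison called 1 of 119 and 1 of 84 probe sets of these lists, beside 1.35% and 0.654% of all probe sets. Foxp1 was represented by 7 probe sets, and only 1438802_at was called, with means of 4.68 in BF, 4.24 in BG and 6.49 in FC tongue. It was 4.75-fold higher in FC than in BG (2.25, adjusted p = 1.35e-06) and differed from FC by -1.80 in BF (adjusted p = 5.81e-05). The other 6 probe sets of Foxp1 differed between FC and BG by 0.03 to 0.56. Fgfr1, a fibroblast growth factor receptor, was called at 1424050_s_at, with 1.11 in FC vs. BG (adjusted p = 0.00326) and -1.06 in BF vs. FC (adjusted p = 0.00884). Its second probe set, 1425911_a_at, gave 0.91 (adjusted p = 0.0362) and -0.27 (adjusted p = 0.699). FC tongue was measured on 2 arrays.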

How the data were processed

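Total RNA of 23 samples was labelled with biotin and hybridized to Affymetrix GeneChip mouse arrays. The deposited log2 values per probe set were made by the authors with RMA in Partek Genomics Suite, and were used as they are. RMA corrects the background, quantile-normalizes the arrays and summarizes probes by median polish. Quantile normalization gives all arrays the same distribution, so that values are relative to the other genes of an array. Of 22626 probe sets, 20380 name 1 gene in the platform annotation, 691 several and 1555 none, and only the first kind is named. The scanned intensities were not used here, and the number of arrays limits the precision.

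Groups came from the sample titles. A single limma 3.58.1 model held all arrays in 6 groups, which left 17 residual degrees of freedom (lmFit, eBayes with 5.12 prior degrees of freedom) under R 4.3.3, without a filter on low values. Tongue vs. *longissimus dorsi* is the mean of the differences within BF, BG and FC. Benjamini-Hochberg adjustment ran over all probe sets of a comparison, and a call needed a change over 2-fold at an adjusted p under 0.05 (for the difference between muscles in a housing comparison, the adjusted p alone). The script was tested on simulated data. No batch is given in the labels, and no 2 arrays were identical.

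The 8 genes, the lists of other position factors, facial signals and cell type markers and the rule for named genes were chosen with earlier results of these data known. Named were all probe sets of the 8 genes, of both other lists the 8 called probe sets of smallest adjusted p between the muscles and any called between housing groups, of each marker list up to 3 of highest mean, and for each of the 8 genes the 3 genes of highest Pearson r over arrays and over deviations from group means. Same-numbered samples of 2 groups were checked for deviations from the group means that go together. Their r over 30 pairs ran from -0.218 to 0.545. Only in BF vs. BG tongue were all 3 pairs over 0.1 (0.167 to 0.383), and the fit with the replicate number as a block is given there beside the result. In BF vs. FC *longissimus dorsi* 4 of 5 pairs were over 0.1 (-0.0745 to 0.545). The block was fitted over all arrays, and so joined the same-numbered samples of all groups and of both muscles. The pairing comes from this check and not from the labels. Alternatives were contrasts without moderation, trend and robust moderation, the brighter probe sets (mean at or above the median of all), median centring, array weights, the replicate block, 1 probe set per gene, quantile normalization again or within a muscle, each muscle alone and leaving out each array.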

Additional observations from a re-analysis of the deposited data

Results flagged for a closer look

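In the *longissimus dorsi* groups, which hold 5 samples each, the highest or lowest array of each of the 12 probe sets was set against Dixon's critical value for its gap to the nearest of the others. In 4 of 36 cases the gap passed, where about 1 in 20 would by chance. Tbx15 (1418755_at) was 10.94 in BF replicate 4, with the next array at 10.52. Msx1 (1417127_at) was 6.71 in BG replicate 5, with the next at 7.14, and this array had the widest spread around its group. Pax9 (1421246_at) was 3.76 in BF replicate 2, with the next at 3.68, and 3.56 in FC replicate 4, with the next at 3.75, both at the low end of the scale. Tongue groups of 3 and 2 samples were not examined in this way.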

How the results depend on the processing

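Of 1107 member values recomputed under the alternatives, 1080 kept their direction and stayed called or not called, but 53 of these 1080 crossed an adjusted p of 0.05. The 7 probe sets higher in tongue were called under each alternative that tested them. Counts of called members fell where fewer of their probe sets were tested by construction: with the brighter probe sets (5 tested) 3 were called between the muscles, and 2, 2 and 3 within BF, BG and FC, and with 1 probe set per gene (8 tested) 5 were called between the muscles and 5 within FC. In BF vs. FC tongue 0 were called with 1 probe set per gene, since 1422195_s_at of Tbx15 was not among them. With the replicate block Tbx15 (1422195_s_at) lay at -0.96 between the muscles (adjusted p = 6.61e-07), under 2-fold. In BF vs. BG tongue 3 were called with array weights, 2 with the replicate block, 2 with tongue alone, 1 with quantile normalization within the muscle and 0 to 1 when an array was left out. Array weights called 1 in BF vs. BG *longissimus dorsi* (Tbx15, 1422195_s_at, 1.03), 2 in the muscle difference of BF vs. BG (0 to 1 without an array) and 1 in that of FC vs. BG. The cause was not tested. Values near 0 changed sign. Tbx15 (1422195_s_at) in FC vs. BG *longissimus dorsi* was 0.07 with array weights and -0.11 to 0.09 without an array, and Pitx1 (1419514_at) in FC vs. BG tongue was -0.04 with median centring, -0.02 with the replicate block and -0.27 to 0.24 without an array. The replicate block changed no other count of called members. The number of arrays limits the precision, and between tongue groups the SE of a member was as large as 0.354 (Tbx1, FC vs. BG).

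Counts over the whole array also moved. With 1 probe set per gene, where 12393 were tested, the muscles gave 1898 calls instead of 3040 (1889, 1860 and 2153 instead of 3054, 2969 and 3528 within BF, BG and FC), and BF vs. BG, then FC vs. BG, then BF vs. FC gave 54, 22 and 33 instead of 96, 46 and 75 in *longissimus dorsi* and 27, 109 and 18 instead of 50, 306 and 148 in tongue. Among the brighter probe sets the tongue comparisons gave 16, 185 and 90. FC vs. BG *longissimus dorsi* gave 28 with quantile normalization within the muscle. BF vs. BG tongue gave 27 without moderation, 136 with array weights, 31 with tongue alone and 29 after quantile normalization within it. Without 1 array, the tongue comparisons ranged over 9 to 178, 86 to 444 and 34 to 171. The muscle difference in BF vs. BG, then FC vs. BG, then BF vs. FC had 39, 68 and 15 probe sets, which were 14, 40 and 4 without moderation, 1051, 446 and 105 with array weights, 11, 26 and 0 with 1 probe set per gene and 0 to 375, 7 to 99 and 1 to 18 without 1 array. It was 24 with median centring and 23 with quantile normalization over all arrays in BF vs. BG, 25 and 3 among the brighter probe sets in FC vs. BG and BF vs. FC, and 7 with the replicate block in BF vs. FC. The cause was not tested where the same probe sets entered.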
